A study of Mus musculus with 5 samples.

Results

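Periportal hepatocyte nuclei were the nuclei of liver parenchymal cells that stood at the portal end of a zonation score, in a single-nucleus RNA survey of mouse liver. They were chosen from measured values. A hepatocyte nucleus was a barcode with at least 2000 unique molecular identifiers (UMIs, each marking 1 captured RNA molecule), under 10% mitochondrial UMIs, at least 1 UMI of the hepatocyte transcription factor gene Hnf4a, and 0 UMIs of Ptprc, Ptprb, Pkhd1 and Col3a1, which mark leukocytes, endothelium, bile duct cells and collagen-producing cells. The score was the mean of ln(1 + UMIs per 10000) over 5 pericentral genes (Glul, Oat, Slc1a2, Cyp1a2 and Cyp2e1) minus the same mean over 5 periportal genes (Cyp2f2, Hal, Sds, Gls2 and Pck1). The hepatocyte nuclei of each library were ranked by score and cut into 5 bins of equal size. Bin 1, with the lowest scores, was called periportal, bin 3 midlobular and bin 5 pericentral. This gave 3649 of 18236 hepatocyte nuclei, from 57080 barcodes in all. Chow replicates 1 to 3 contributed 671, 1176 and 1254 of these nuclei, and the MASH pair contributed 285 and 263. Values are given in this order of libraries throughout.

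The livers came from wild-type male C57BL6/J mice that from an age of 10 to 12 weeks ate, for 5 months, either regular chow (3 libraries) or a diet that drew 40% of its calories from fat and 20% from fructose and held 2% cholesterol (2 libraries). That diet brings on metabolic dysfunction-associated steatohepatitis (MASH), a fatty liver disease with inflammation and scarring. Nuclei of snap-frozen liver were sorted and their RNA was counted from its 3' end. The labels do not say whether a library was 1 mouse, so p-values measure only the spread between libraries, which may in part be technical.

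Blood enters the liver lobule at the portal tract, rich in oxygen and nutrients, and leaves at the central vein. Hepatocytes along this path divide the work: periportal cells are known for gluconeogenesis, urea formation from ammonia, amino acid breakdown and beta-oxidation of fatty acids, and pericentral cells for glutamine synthesis, bile acid synthesis and drug metabolism. Wnt signals from the central vein hold up the pericentral programme, and the midlobular cells between carry intermediate levels of most zonated genes along with some genes of their own, such as the iron hormone gene Hamp.

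The 5 libraries held from 8633 to 12935 barcodes and from 35612373 to 49137377 UMIs. The summed periportal nuclei held 3181391, 4960652 and 6361645 UMIs in chow and 1413261 and 1356675 in MASH, so a MASH value rests on fewer nuclei and fewer molecules. The median was between 3657.5 and 4606 UMIs per periportal nucleus, and the median mitochondrial share between 0.448% and 2.76%. Between 23 and 48 barcodes were found in both libraries of a pair. Chow replicate 3 stood apart: its summed periportal profile correlated with those of the other chow replicates at Pearson r of 0.913 and 0.934 across genes and with MASH at 0.794 and 0.801, while chow replicates 1 and 2 correlated at 0.95 and the MASH pair at 0.956 (genes are not independent replicates). Levels are in CPM, the UMIs of a gene per 1000000 UMIs of the summed nuclei of a library. Within a bulk sum of nuclei, fewer expressing nuclei and less RNA per nucleus cannot be told apart.

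The limit of the score for a periportal nucleus differed between libraries. The last nucleus inside it scored -1.60, -1.19 and -1.36 in chow but -0.916 and -0.595 in MASH. The first one outside scored -1.60, -1.19, -1.36, -0.915 and -0.582. Median scores of the members were -1.87, -1.46 and -1.61 in chow and -1.38 and -1.10 in MASH. With the highest chow limit applied to all libraries, 201 of the 285 and 113 of the 263 MASH members would have passed, and calls between the diets or against pericentral nuclei that change at that limit are given with it below. The comparison with midlobular nuclei was not run at a common limit.

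**Figure D1:**
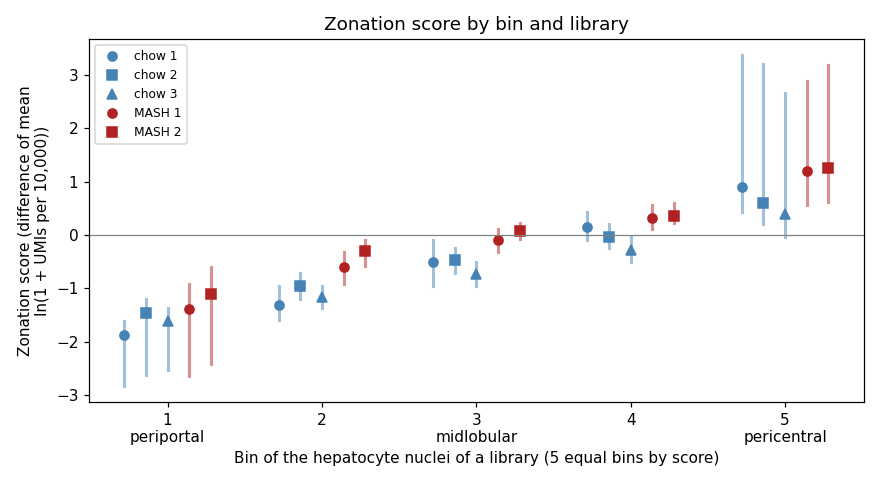
Zonation score (natural log scale, lower is more periportal) of the hepatocyte nuclei in each bin of each library, with the median as a point and the lowest and highest nucleus as a bar. The periportal medians lie from -1.87 to -1.10, and in every bin both MASH medians are above all chow medians, by the least in bin 1, where MASH replicate 1 is at -1.38 and chow replicate 2 at -1.46.

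The 10 genes of the score chose the nuclei, and their levels are given as a description with no test, unscaled. Sds, serine dehydratase, which turns serine into pyruvate for gluconeogenesis, stood at 769.8, 772 and 1098 CPM in the periportal nuclei of chow and at 624 and 600.0 CPM in MASH. Its mean was 879.8 ± 189 CPM (SD, n = 3) in chow against 223 CPM in bin 3, and 612 ± 17.0 CPM (SD, n = 2) in MASH against 32.1 CPM in bin 3. All 3 chow libraries were above both MASH libraries at the portal end, and the drop from bin 1 to bin 3 was steeper in MASH.

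Hal, histidine ammonia-lyase, which opens histidine breakdown, was at 1121, 422 and 453 CPM in chow and 399 and 370.0 CPM in MASH. Cyp2f2, a periportal cytochrome P450, was at 587, 891 and 442 CPM in chow and 522 and 248 CPM in MASH, so the diets overlapped. Gls2, the liver glutaminase that frees ammonia from glutamine, was at 412, 243 and 129 CPM and at 209 and 178 CPM, again with overlap. Pck1, the gluconeogenic phosphoenolpyruvate carboxykinase, was at 3523, 2999 and 3139 CPM in chow and 2099 and 2369 CPM in MASH, without overlap. Their mean levels in bin 3 were lower than in the periportal one in both diets, at 216, 294, 108 and 2449 CPM in chow and 36, 69.4, 23.1 and 1101 CPM in MASH for Hal, Cyp2f2, Gls2 and Pck1.

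Of the pericentral score genes, Glul, glutamine synthetase, reached 17.1 ± 8.21 CPM (SD, n = 3) in the periportal nuclei of chow and 38.6 ± 2.46 CPM (SD, n = 2) in MASH, against 422 and 1684 CPM in bin 5. Cyp2e1, an ethanol-oxidising P450, kept 345 ± 196 and 428 ± 295 CPM there, against 2709.7 and 2419.5 CPM in bin 5. Hnf4a, required at 1 UMI, had 516 ± 48.1 CPM in chow and 315 ± 16.2 CPM in MASH. The nuclei held 0 UMIs of Ptprc, Ptprb, Pkhd1 and Col3a1 by the rule. Of the nuclei that passed the other limits, this step kept 3355 of 4189, 5876 of 6548 and 6269 of 6991 in chow. In MASH it kept 1422 of 2464 and 1314 of 2589, so it removed a larger part there.

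A label taken from score genes can be looked at without the gene in question. When each of the 10 score genes was left out of the score in turn and the nuclei were ranked again, the gene left out still lay on its side in 5 of 5 libraries. The ratio of bin 1 to bin 5 of a periportal gene left out ran over libraries from 3.03 to 10.1 for Cyp2f2, from 4.32 to 20.4 for Gls2, from 7.13 to 21.2 for Hal, from 7.88 to 37.9 for Sds and from 1.20 to 3.02 for Pck1. Pck1 was thus the weakest of these landmarks. At least 2 of the 5 periportal genes had a UMI in 100% of members in 4 libraries and in 99.2% in MASH replicate 2.

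Genes outside the rule followed the same axis. Of 22 further periportal landmark genes, 20, 18 and 17 were higher in bin 1 than in bin 5 in the chow libraries and 21 and 21 in the MASH libraries, with medians of log2 ratios, after adding 5 CPM to both levels, from 0.38 to 1.10 in chow and from 1.21 to 1.36 in MASH. Of 22 pericentral landmarks, 1, 0 and 0 in chow and 1 and 1 in MASH were higher in bin 1. All genes of the nuclei share the ranking, so these are descriptions.

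The genes outside the rule with the steepest difference between bins 1 and 5, chosen after their values were seen, were led by Cryl1, lambda-crystallin, which handles L-gulonate in the pentose pathway. It stood at 164, 42.5 and 32.5 CPM in the periportal nuclei of chow and 92.0 and 45.7 CPM in those of MASH, against 1.51 to 5.49 CPM in bin 5. Sdsl, the serine dehydratase-like paralog of Sds, was at 45.6, 38.7 and 60.0 CPM in chow and 26.2 and 36.1 CPM in MASH, against 1.42 to 5.27 CPM. Both were above bin 5 in every library.

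Sfxn1, a mitochondrial serine carrier, was at 357, 294 and 217 CPM in chow and 517 and 625 CPM in MASH, and Hsd17b13, a lipid droplet protein, at 383, 225 and 115 CPM in chow and 587 and 604 CPM in MASH. Both were also above bin 5 in every library, where they had 39.2 to 76.5 CPM and 28.2 to 109.9 CPM. Chrm3, a muscarinic acetylcholine receptor gene, was at 12.3, 17.3 and 15.2 CPM in chow and 70.8 and 64.9 CPM in MASH, against 0.274 to 5.70 CPM in bin 5.

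**Figure D2:**
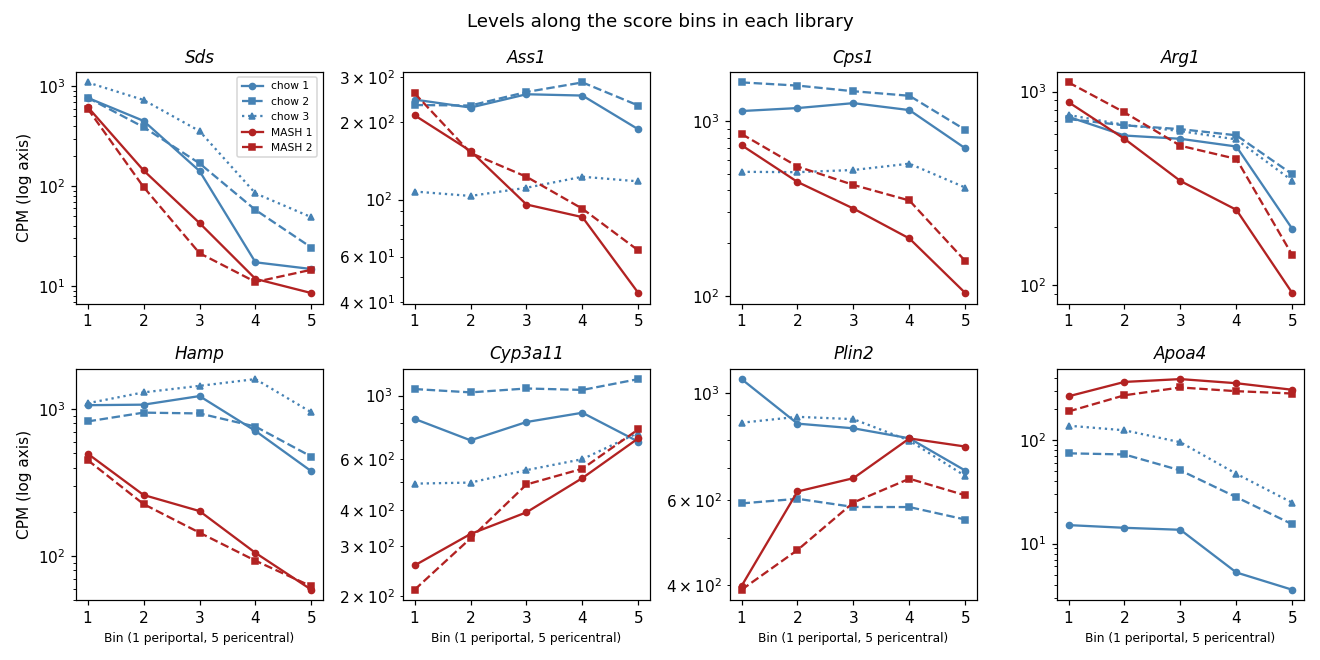
Unscaled CPM (log axis) in the summed nuclei of each bin, from periportal to pericentral, with 1 line per library. In MASH, Ass1 drops from 213 and 259 CPM in bin 1 to 43.3 and 63.4 CPM in bin 5, while in chow it spans 108 to 245 CPM in bin 1 and 118 to 232 CPM in bin 5.

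The second question was how periportal nuclei differed between the diets. UMI counts were summed per library over the members and tested across 11312 genes with the edgeR quasi-likelihood test, with Benjamini-Hochberg adjustment over all genes, at an adjusted p under 0.05. The levels given for this comparison are scaled with TMM, which corrects for differences in composition. The median log2 fold change (MASH over chow) of all genes was -0.03. In all, 693 genes (6.13% of those tested) were called, 448 higher in MASH (3.96%) and 245 lower (2.17%). At an unadjusted p under 0.05 there were 3087.

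The calls rest on 2 MASH libraries, and without either of these only 3 genes (Ntrk2, Rad51b and Mapt) were called. Without chow replicate 1, 2 or 3 there were 1275, 393 and 1128 calls. At 1 common score limit 273 genes were called, 267 of them among the 693. None of the 693 changed sign in any of these settings.

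**Figure D3:**
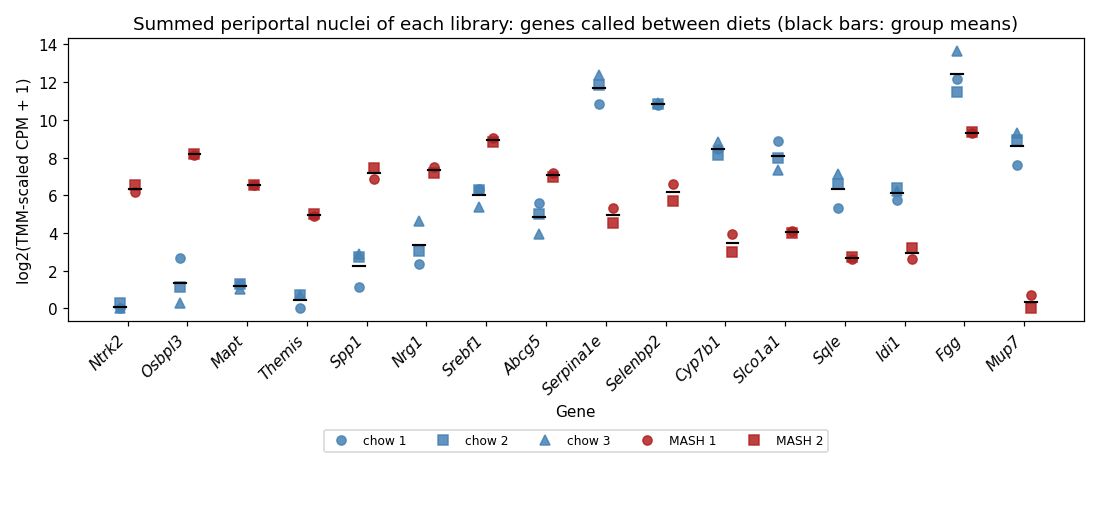
TMM-scaled level, as log2(CPM + 1), of 16 genes called between the diets in the summed periportal nuclei, with 1 point per library and a bar at each group mean. The 3 chow and 2 MASH points do not overlap for any gene shown, from Ntrk2 at 0 to 0.205 CPM in chow and 71.4 and 90.8 CPM in MASH to Mup7 at 190.5 to 640.2 CPM in chow and 0.655 and 0 CPM in MASH.

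The genes that rose most were close to absent in chow. Ntrk2 (chr13:58806569-59133970, GRCm38), a neurotrophin receptor, was at 0, 0.205 and 0 CPM in chow and 71.4 and 90.8 CPM in MASH. That is 1 UMI against 253, a ratio of 1064 with an exact Poisson interval of 189 to 42203 that covers counting error only (log2 fold change 9.47 ± 0.54, SE, adjusted p = 0.000687). Rad51b, of the recombination repair machinery, was at 0, 0.409 and 0.206 CPM and at 66.2 and 85.1 CPM, or 3 UMIs against 236, a ratio of 331 (112 to 1616; adjusted p = 0.00073). Fitted fold changes of such genes depend on the prior count of the fit.

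Osbpl3 (chr6:50293330-50456201), an oxysterol-binding protein family member, was at 5.38, 1.23 and 0.206 CPM in chow and 278 and 296 CPM in MASH (7.10 ± 0.78, adjusted p = 0.00565). Mapt, the microtubule protein tau, was at 1.5, 1.43 and 1.03 CPM and at 92.4 and 91.4 CPM (6.10 ± 0.31, adjusted p = 0.000527). Its libraries agreed more closely within each diet than those of Osbpl3. Spp1, osteopontin, was at 1.20, 5.73 and 6.37 CPM and at 115 and 175 CPM (4.97 ± 0.52, adjusted p = 0.0053).

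The remaining genes completed the 10 largest rises among genes with at least 20 CPM in the higher diet. Fam83a had 1 UMI in chow against 71 in MASH, a ratio of 299 (51.9 to 11961). Themis, better known from T cell selection, Cyp2a22, a P450 with close paralogs, Stap1 and Arhgef2 rose by 5.93 ± 0.55, 5.59 ± 0.59, 5.0 ± 0.41 and 4.89 ± 0.55 on the log2 scale. Their adjusted p-values lay between 0.0032 and 0.00622.

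The largest falls included genes of secreted, male-biased liver proteins. Mup7 (chr4:60066469-60070475), a major urinary protein gene, was at 190.5, 486 and 640.2 CPM in chow and 0.655 and 0 CPM in MASH, or 6124 UMIs against 1, a ratio of 0.000687 (1.7e-05 to 0.00383; adjusted p = 0.00438). Mup11 was at 369, 708 and 1400.5 CPM in chow and 7.86 and 1.26 CPM in MASH (-7.50 ± 0.95, adjusted p = 0.00848). Mup1, Mup16, Mup17 and Mup12 also fell, with adjusted p-values from 0.00848 to 0.0188. The Mup genes are near-identical copies, so reads can be split between them and the value of any 1 gene is uncertain.

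Serpina1e (chr12:103946931-103958975), an alpha-1 antitrypsin paralog and likewise uncertain, was at 1822, 3644 and 5402 CPM in chow and 39.3 and 22.1 CPM in MASH (-6.88 ± 0.74, adjusted p = 0.0053). Ugt2b38, a glucuronosyltransferase with close paralogs, was at 36.2, 39.5 and 23.8 CPM and at 0.655 and 0 CPM (adjusted p = 0.00565). Egfros, a transcript antisense to Egfr that cannot be told apart from it unless strand was used in counting, was at 412, 393 and 1531 CPM and at 13.1 and 10.1 CPM (-6.07 ± 0.84, adjusted p = 0.0118). Mt1, a metallothionein, was at 1967, 1109.8 and 11080 CPM and at 50.4 and 112 CPM (-5.86 ± 1.22, adjusted p = 0.0353), a call lost at the common score limit, and its highest value was in chow replicate 3.

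Genes of the functions that define the portal zone passed the test between the diets about as seldom as genes did in general (6.13%), so their counts are no result about them. Among 12 genes of the urea cycle and ammonia handling, edgeR called 0, with 1 higher and 2 lower at an unadjusted p under 0.05, DESeq2 called 0 higher and 2 lower, and the list median was 0.06. Ass1, argininosuccinate synthetase, was at 233, 237 and 141 CPM in chow and 197 and 222 CPM in MASH (0.04 ± 0.32, adjusted p = 0.947). Arg1, arginase, was at 704, 731 and 989 CPM and at 816 and 953 CPM (0.13 ± 0.33, adjusted p = 0.832). For both genes the diets overlapped. Slc38a3, a glutamine transporter with the highest level of the list, was at 2429, 1943 and 2164 CPM and at 1158 and 961 CPM, without overlap and short of the threshold (-1.04 ± 0.36, adjusted p = 0.116).

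Of 34 amino acid catabolism genes edgeR called 0, with 3 higher and 7 lower at an unadjusted p under 0.05. DESeq2 called 2 higher and 4 lower, and the median was -0.09. Mat1a, methionine adenosyltransferase and the gene with the highest level here, gave -0.72 (adjusted p = 0.514). Of the 22 periportal landmarks outside the rule, Aldh1b1, a mitochondrial aldehyde dehydrogenase, rose from 2.39, 4.91 and 2.88 CPM to 21.0 and 9.46 CPM (2.13 ± 0.50, adjusted p = 0.0486). Ctsc, cathepsin C, fell from 246, 84.7 and 149.8 CPM to 32.8 and 34.7 CPM (-2.25 ± 0.47, adjusted p = 0.0363). Both calls were lost at the common score limit, the other 20 landmarks were not called, and the list median was -0.02.

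Pericentral landmarks were measured in the periportal nuclei too, where 18 of 22 passed the filter on low counts. Of these 18, 4 rose and 4 fell, against 3.96% and 2.17% of all genes tested, and the list median was 0.45. Those that rose were Axin2 and Rnf43, feedback inhibitors of Wnt signalling, the transcription factor gene Tbx3 and the vasopressin receptor gene Avpr1a. Axin2 went from 2.09, 1.64 and 1.23 CPM to 8.52 and 10.1 CPM (2.49 ± 0.48, adjusted p = 0.029), Tbx3 from 5.98, 6.55 and 3.49 CPM to 17.7 and 20.8 CPM (adjusted p = 0.0345), and Avpr1a from 6.58, 6.14 and 4.52 CPM to 16.4 and 21.4 CPM (adjusted p = 0.033). None of these 4 was called at the common score limit.

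Those that fell were drug-metabolising P450 genes with close paralogs, Cyp2c29, Cyp2c37, Cyp2c50 and Cyp3a11. Cyp2c29 went from 70.9, 257 and 196 CPM to 11.1 and 5.04 CPM (-4.43 ± 0.68, adjusted p = 0.0157). Cyp3a11 went from 789, 1070 and 645 CPM to 237 and 180.3 CPM (-2.0 ± 0.37, adjusted p = 0.0265). Slco1b2, an organic anion transporter and the landmark with the highest level, was not called (1.42, adjusted p = 0.136).

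**Figure D4:**
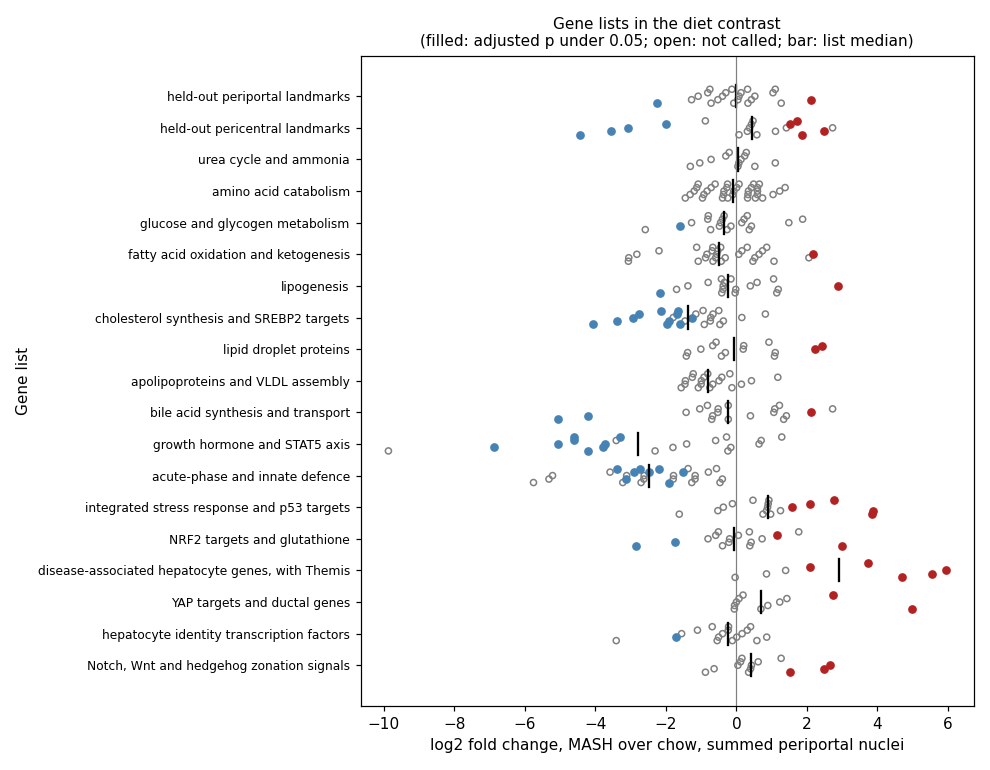
Log2 fold change (MASH over chow) of each tested gene of 19 gene lists in the summed periportal nuclei, filled where the adjusted p was under 0.05, with a bar at the list median. Medians run from -2.80 for the growth hormone and STAT5 axis to 2.92 for the disease-associated hepatocyte (daHep) genes with Themis, and the point at -9.87 is Hsd3b5, which had 0 UMIs in both MASH libraries.

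Cholesterol synthesis was the metabolic list with the most calls. SREBP2 is the transcription factor that switches these genes on when membrane sterol is low. Of its 24 genes, 0 rose, 11 fell, against 2.17% of all genes tested, and the median was -1.36. In 20 of the 24 both MASH libraries lay under all chow libraries, against 24.2% of all genes tested.

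Sqle (chr15:59315077-59331192), squalene epoxidase, a slow step of the pathway, was at 39.2, 97.4 and 137 CPM in chow and 5.24 and 5.67 CPM in MASH (-4.05 ± 0.63, adjusted p = 0.0159). Idi1, isopentenyl diphosphate isomerase, was at 53.5, 83.5 and 73.8 CPM and at 5.24 and 8.19 CPM (-3.38 ± 0.37, adjusted p = 0.00565). Cyp51, lanosterol demethylase, was at 23.3, 54.2 and 46.9 CPM and at 3.93 and 6.93 CPM (-2.92 ± 0.51, adjusted p = 0.0221). All 5 libraries kept to their diet's side for each of these.

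Nsdhl, Fdps, Ebp, Msmo1, Stard4 and Hsd17b7 were among the other calls. Sc5d, which had the highest level of the list, did not pass (0.15, adjusted p = 0.846). At the common score limit 9 of the 24 were called, and 6 without chow replicate 2.

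Promoters are shown for 3 of the called genes because these genes moved together and because SREBP2 is known to act with the CCAAT-binding factor NF-Y. They are the 250 bases before the start of the gene in RefSeq (GRCm38.p6), written in the direction of the gene, with every CCAAT (or ATTGG on the other strand) and every TCACNCCA, letters of the sterol element, in capitals. Idi1 is at chr13:8885356-8885605 (+), Cyp51 at chr5:4104698-4104947 (-) and Msmo1, sterol methyl oxidase, at chr8:64733579-64733828 (-).
Idi1: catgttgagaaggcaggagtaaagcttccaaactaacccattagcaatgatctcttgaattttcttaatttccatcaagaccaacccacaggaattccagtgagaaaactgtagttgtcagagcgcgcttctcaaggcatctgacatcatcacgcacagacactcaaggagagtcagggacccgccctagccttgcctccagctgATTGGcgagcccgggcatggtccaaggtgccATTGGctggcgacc
Cyp51: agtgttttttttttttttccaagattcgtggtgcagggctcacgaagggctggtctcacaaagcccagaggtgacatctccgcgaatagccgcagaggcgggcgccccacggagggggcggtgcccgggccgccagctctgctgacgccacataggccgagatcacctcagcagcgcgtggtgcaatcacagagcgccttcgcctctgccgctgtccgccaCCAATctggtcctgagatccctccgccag
Msmo1: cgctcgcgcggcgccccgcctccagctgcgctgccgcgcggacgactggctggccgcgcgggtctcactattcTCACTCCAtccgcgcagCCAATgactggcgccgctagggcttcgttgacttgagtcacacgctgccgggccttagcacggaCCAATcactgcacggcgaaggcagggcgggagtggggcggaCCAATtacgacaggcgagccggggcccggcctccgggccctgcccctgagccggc

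Among the 16 genes of the list with a promoter in the RefSeq table, CCAAT on either strand was in 16, against 37.5% of the promoters of 27025 genes, and TCACNCCA was in 3 (Srebf2, Hmgcs1 and Msmo1), against 4.2%. Genes that fell and genes that were not called both carried CCAAT, Sc5d among the latter. These letters were chosen after the expression values were seen, and a match is no measure of binding.

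Targets of growth hormone fell as well. Growth hormone acts on hepatocytes through JAK2 and STAT5, and in male mice its pulses keep up a set of male-biased genes. Of 20 tested genes of this axis, 0 rose and 8 fell, with a median of -2.80, and in 13 the MASH libraries were under all chow libraries. Among all genes tested 2.17% fell and 24.2% had MASH under chow without overlap. Cyp7b1 (chr3:18071950-18243338), oxysterol 7-alpha-hydroxylase, was at 343, 284 and 453 CPM in chow and 14.4 and 6.93 CPM in MASH (-5.07 ± 0.47, adjusted p = 0.00438). Selenbp2 was at 1753, 1823 and 1880.2 CPM and at 97.0 and 51.1 CPM (-4.62 ± 0.47, adjusted p = 0.00438).

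The direct STAT5 targets and feedback inhibitors Socs2 and Cish were among the falls. Socs2 was at 93.9, 286 and 185 CPM in chow and 6.55 and 8.83 CPM in MASH (-4.61 ± 0.58, adjusted p = 0.00848), and Cish at 134, 305 and 145 CPM and at 10.5 and 29.0 CPM (-3.30 ± 0.58, adjusted p = 0.0222). Slco1a1, an anion transporter, Elovl3, Cyp4a12b and Serpina1e completed the 8. Hsd3b5, a male-biased steroid enzyme gene, was counted 480 times over the chow sums and never in MASH. Against a floor of 3 counts over both MASH libraries it was at least 38.0-fold lower, and it was not called (adjusted p = 0.0548). With that bound in place of the fitted value the list median was still -2.80. Igf1, the circulating growth factor, was at 624, 1197 and 702 CPM and at 312 and 320.2 CPM (-1.41 ± 0.39, adjusted p = 0.0716). In the RefSeq table, TTCNNNGAA, the letters STAT5 prefers, was in the promoters of 3 of 19 genes of the axis, against 8.13% of all. The 3 were Igfals, Bcl6 and Sult3a1, none of them among the 8 that fell.

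Acute-phase genes, plasma proteins that the liver makes under inflammatory cytokines, were lower in MASH. All 27 fold changes were below 0, with a median of -2.48. Of these, 8 passed the test, against 2.17% called lower among all genes, and 20 had MASH libraries under all chow libraries, against 24.2%. Fgg (chr3:83007724-83015049), fibrinogen gamma, was at 4498, 2867 and 12928 CPM in chow and 622 and 660.0 CPM in MASH (-3.40 ± 0.75, adjusted p = 0.0417), a call lost at the common score limit. Fgb, fibrinogen beta, was at 4337, 2484 and 7547 CPM and at 635 and 652 CPM (-2.90 ± 0.58, adjusted p = 0.033). Socs3, the feedback inhibitor of STAT3, was at 136, 44.2 and 148 CPM and at 7.86 and 17.0 CPM (-3.13 ± 0.63, adjusted p = 0.0329).

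The chow libraries varied widely here. Saa1, serum amyloid A, was at 1532, 125 and 8579.5 CPM in chow and 91.7 and 79.4 CPM in MASH (-5.32 ± 1.59, adjusted p = 0.0855), so chow replicate 3 had many times the level of chow replicate 2. Itih4, Fga, C3, Itih3 and Stat3 itself made up the other calls. Stat3 was at 347, 233 and 423 CPM and at 111 and 121 CPM (-1.53 ± 0.34, adjusted p = 0.0423). With chow replicate 3 left out the list had 1 gene called higher and 15 lower, and with chow replicate 2 left out 15 lower.

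Single genes of the lipid lists passed the test. Srebf1 (chr11:60199089-60222581), encoding the lipogenic factor SREBP1, rose from 78.3, 76.6 and 40.9 CPM to 525 and 445 CPM (2.89 ± 0.35, adjusted p = 0.00752). Elovl6, a fatty acid elongase and target of the same factor, fell from 111, 268 and 288 CPM to 53.7 and 46.0 CPM (-2.16 ± 0.46, adjusted p = 0.0373; lost at the common score limit). The other 16 of 18 tested lipogenesis genes were not called, and among all genes tested 6.13% were called. The list median was -0.25, and Mlxipl, which encodes the sugar-sensing factor ChREBP, gave -0.38 (adjusted p = 0.532).

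Of 14 lipid droplet proteins 2 rose, against 3.96% of all genes tested, and the median was -0.06. Cidec, which fuses droplets, went from 4.78, 10.0 and 6.78 CPM to 36 and 42.9 CPM (2.43 ± 0.36, adjusted p = 0.0142), and Plin4 from 29.6, 26.0 and 29.8 CPM to 90.4 and 175 CPM (2.22 ± 0.32, adjusted p = 0.0128). Plin2, the main coat protein of hepatocyte droplets, was at 1017, 599 and 1135 CPM and at 368 and 334 CPM, with no overlap but short of the threshold (-1.39 ± 0.38, adjusted p = 0.0717).

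Of 28 genes of fatty acid oxidation and ketogenesis, 1 rose, no more often than genes in general (3.96% higher), and the median was -0.49. That gene was Vnn1, pantetheinase, which went from 13.8, 10.0 and 4.73 CPM to 48.5 and 37.2 CPM (2.19 ± 0.43, adjusted p = 0.0317; lost at the common score limit).

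Of 19 glucose and glycogen genes, 1 fell, a share close to that of all genes tested (6.13% in either direction), and the median was -0.35. Tkfc, triokinase of fructose breakdown, went from 315, 541 and 404 CPM to 153 and 122 CPM (-1.61 ± 0.34, adjusted p = 0.0384; lost at the common score limit).

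Among 19 apolipoprotein and VLDL genes edgeR called 0, with 0 higher and 8 lower at an unadjusted p under 0.05, DESeq2, which called 1325 genes in all, called 6 lower, and in 10 the MASH libraries lay under all chow libraries, against 24.2% of all genes tested (median -0.81). Apoa1, the main protein of HDL, was at 2277, 3593 and 3534 CPM in chow and 1372 and 1309 CPM in MASH (-1.23 ± 0.41, adjusted p = 0.106), and Apoe gave -0.42 (adjusted p = 0.545).

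Of 19 genes of bile acid synthesis and transport 1 rose and 2 fell (Cyp7b1 and Slco1a1, above). Among all genes tested 3.96% rose and 2.17% fell. The list median was -0.23. Abcg5, which with Abcg8 exports sterols into bile, rose from 46.3, 31.5 and 14.2 CPM to 142 and 122 CPM (2.11 ± 0.44, adjusted p = 0.0349; lost at the common score limit). Abcc2, the canalicular exporter of conjugated bilirubin, was at 990.0, 554 and 613 CPM and at 1853 and 1787 CPM, without overlap (1.34 ± 0.37, adjusted p = 0.0718).

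Stress genes rose in part. Of 17 tested genes of the integrated stress response and p53, 5 rose, against 3.96% of all genes tested, 0 fell and the median was 0.90. Fgf21, a stress hormone of hepatocytes, was at 7.48, 3.68 and 1.23 CPM in chow and 45.2 and 70.6 CPM in MASH (3.86 ± 0.58, adjusted p = 0.0149). Trib3, a pseudokinase induced by ATF4 and CHOP, was at 3.29, 3.89 and 1.44 CPM and at 21.0 and 18.3 CPM (2.77 ± 0.46, adjusted p = 0.019). Nupr1 rested on 3 chow UMIs against 12 from MASH, a ratio of 16.8 (4.54 to 92.9; adjusted p = 0.0402), and Sesn2, sestrin 2, went from 6.58, 5.32 and 4.52 CPM to 14.4 and 18.3 CPM (adjusted p = 0.0429). Atf4 itself gave -0.53 (adjusted p = 0.252).

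Of 16 tested NRF2 and glutathione genes 2 rose and 2 fell, against 3.96% and 2.17% of all genes tested, with a list median of -0.07. Nfe2l2, which encodes NRF2, rose from 118, 131 and 109.8 CPM to 293 and 238 CPM (1.15 ± 0.26, adjusted p = 0.0421), and Gsta1 from under 1 CPM in each chow library to 7.21 and 3.15 CPM (adjusted p = 0.0437). Ces2a, a carboxylesterase, fell from 76.2, 85.4 and 56.1 CPM to 9.83 and 10.1 CPM (-2.86 ± 0.33, adjusted p = 0.00647), and Gstp1 from 45.2, 34.2 and 45.2 CPM to 17.0 and 7.56 CPM (-1.76 ± 0.39, adjusted p = 0.0417). Gclc, the rate-limiting enzyme of glutathione synthesis and the gene with the highest level here, gave 0.37 (adjusted p = 0.587).

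The next list held 7 genes that the study ties to its disease-associated hepatocytes (daHep) or to senescence in them, and Themis, which it followed as a gene induced in MASH. The study chose them on these samples, so their direction is no independent evidence. Of the 8, 5 rose (4 of the 7 without Themis), against 3.96% of all genes tested, 0 fell and the median was 2.92. In 6 of the 8 the MASH values did not overlap with chow and were higher, against 25.3% of all genes tested. Themis (chr10:28668360-28883818) was at 0, 0.614 and 0.617 CPM in periportal nuclei of chow and 28.8 and 30.9 CPM in MASH (5.93 ± 0.55, adjusted p = 0.00438). Sox4, a transcription factor gene, was at 0.598, 0.409 and 0.206 CPM and at 14.4 and 25.2 CPM (5.55 ± 0.55, adjusted p = 0.00438). Anxa2, annexin A2, was at 0, 1.23 and 0.822 CPM and at 24.9 and 15.8 CPM (4.70 ± 0.67, adjusted p = 0.0128).

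Nrg1, the growth factor neuregulin 1, was at 4.19, 7.16 and 24.3 CPM and at 179 and 144 CPM (3.74 ± 0.62, adjusted p = 0.0194), and its call was lost without chow replicate 2. Gdf15, a stress cytokine, was at 49.0, 22.7 and 40.1 CPM and at 170.3 and 146 CPM (2.09 ± 0.34, adjusted p = 0.019), a call lost at the common score limit. Klf6, Cdkn1a and Jun were not called, at 1.4 (adjusted p = 0.175), 0.85 (adjusted p = 0.399) and -0.04 (adjusted p = 0.962). Jun changed sign under 7 other settings, and its highest level was in chow replicate 3 at 167 CPM, against 104 and 108 CPM in MASH.

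Periportal nuclei held less of Themis and Anxa2 than nuclei farther along the score in both MASH libraries. In unscaled CPM, Themis was at 31.1 and 36.1 in bin 1 of the MASH libraries, 129 and 124 in bin 3 and 196 and 202 in bin 5, and Anxa2 at 26.9 and 18.4, 70.3 and 61.1, and 67.4 and 53.2. Sox4 went the other way in MASH replicate 2, from 29.5 in bin 1 to 11 and 11.4, and stood at 15.6, 18.7 and 9.22 in MASH replicate 1. Endothelial nuclei (at least 2 Ptprb UMIs and no Hnf4a UMI) held these RNAs in MASH too. After thinning to 2000 UMIs, 17.9% and 12.5% of them had Themis, against 2.81% to 4.94% of periportal and 26.8% to 30.9% of pericentral nuclei. Anxa2 was in 14.3% and 14.6%, against 2.66% to 5.26% and 11.6% to 11.8%. Sox4 was in 7.14% and 16.7%, against 2.81% to 6.84% and 1.41% to 1.91%. Nrg1 was in 14.3% and 16.7%, against 23.2% to 24.3% and 11.8% to 13.0%. These were 28 and 48 nuclei. They also held hepatocyte RNA, with Cyp2e1 in 57.1% and 75% and Pck1 in 46.4% and 64.6%. In chow, Themis was in 0% of such nuclei in each library. The source of the RNA in these nuclei was not tested.

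Of 11 tested YAP targets and ductal genes 2 rose, against 3.96% of all genes tested, 0 fell and the median was 0.69. Those that rose were Spp1 (above) and Ccn1, a matricellular YAP target, which went from 7.77, 3.48 and 2.88 CPM to 30.1 and 31.5 CPM (2.74 ± 0.44, adjusted p = 0.0182; lost at the common score limit). Sox9, the ductal transcription factor gene, gave a fold change of -0.00 (adjusted p = 1), and Tead1, the DNA-binding partner of YAP with the highest level here, 0.07 (adjusted p = 0.923).

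Of 17 tested hepatocyte identity transcription factors 1 fell, at about the 6.13% called among all genes, and the median was -0.23. Foxa3 went from 71.5, 88.6 and 159 CPM to 31.4 and 33.4 CPM (-1.71 ± 0.40, adjusted p = 0.0466; lost at the common score limit), and Onecut2 gave -0.51 (adjusted p = 0.342). Of 13 tested Notch, Wnt and hedgehog genes 3 rose, against 3.96% of all genes tested, 0 fell and the median was 0.40. Notch1 (chr2:26457903-26516663) went from 14.1, 15.1 and 9.45 CPM to 81.9 and 78.8 CPM (2.64 ± 0.28, adjusted p = 0.0053), and Rnf43 from 27.2, 15.6 and 19.5 CPM to 50.4 and 68.1 CPM (1.52, adjusted p = 0.0342). Tcf7l2, the Wnt effector with the highest level, gave 0.40 (adjusted p = 0.366).

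Markers of other liver cells were low in the periportal sums and moved with the diet. Summed over 7 stellate cell markers the level was 25.8 to 37.7 CPM in chow and 61.6 to 84.8 CPM in MASH, where Col1a1 and Col1a2, the chains of type I collagen, rose by 3.81 ± 0.61 and 3.29 ± 0.68 (adjusted p = 0.0178 and 0.0354). Over 6 markers of lipid-associated macrophages it was 7.23 to 9.74 CPM and 40.5 to 44.6 CPM, with Mmp12 called (5.11 ± 0.83, adjusted p = 0.0187) and Gpnmb at 0 in all chow libraries. Over 6 markers of sinusoidal endothelium it was 23.0 to 41.5 CPM and 53.1 to 75.2 CPM, with Stab1 called (1.78 ± 0.37, adjusted p = 0.0367).

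The 7 Kupffer cell markers summed to 10.4 to 17.3 CPM in chow and 17.7 to 78.5 CPM in MASH, with Marco and Timd4 at 0 in both MASH libraries. The 7 cholangiocyte markers summed to 33.9 to 80.2 CPM and 192 to 293 CPM, of which Spp1 took the larger part in MASH, while Krt19 was at 0 in all 5 libraries. T and B cell markers summed to 3.63 to 77.8 CPM and 5.90 to 11.3 CPM, with Skap1 at 0 in all, and those of neutrophils and red cells to 56.4 to 98.4 CPM and 21.4 to 44.6 CPM. The 8 general hepatocyte markers summed to 15592 to 19769 CPM in chow and 8003 to 9131 CPM in MASH. The part of RNA from other cells in the genes that rose, Themis, Anxa2, Sox4, Spp1, Col1a1 and Mmp12 among them, was not tested.

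The next question was whether the diet changed periportal nuclei by the same amount as the midlobular nuclei (3648 nuclei). It was tested as the zone by diet term with the library as a block, over 12156 genes, and a positive value means that MASH over chow was higher in periportal than in midlobular nuclei. The test called 215 genes (1.77%), 155 with a higher (1.28%) and 60 with a lower (0.494%) diet difference in periportal nuclei. The median of all genes was 0.00, and 1421 genes had an unadjusted p under 0.05. With the score taken from nuclei thinned to 2000 UMIs there were 111 calls, 100 of them shared, and there were 22 and 44 without MASH replicate 1 or 2 and 378 without chow replicate 1.

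Genes of portal functions were on the higher side: 8 of 12 urea cycle and ammonia genes and 22 of 34 amino acid catabolism genes had a higher diet difference in periportal than in midlobular nuclei, with 0 lower in both lists. Their medians were 0.76 and 0.58, and 1.28% of all genes tested were on the higher side. Median scores of the midlobular bin were -0.497, -0.464 and -0.726 in chow and -0.0925 and 0.0666 in MASH, nearer the central end. The bins thus covered different stretches of the score in the diets, and the part of this in the differences was not tested. Ass1 (chr2:31470207-31520672) was at 245, 233 and 108 CPM in the periportal and 257, 262 and 111 CPM in the midlobular nuclei of chow, unscaled, and at 213 and 259 against 95.7 and 123 CPM in MASH (difference 1.21 ± 0.13, adjusted p = 1.86e-05). In each chow library the periportal level was slightly under the midlobular one, and in each MASH library it was above it.

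Cps1 (chr1:67123026-67231259), carbamoyl phosphate synthetase, the first enzyme of the urea cycle, was at 1139, 1662 and 512 against 1264, 1479 and 524 CPM in chow, and 727 and 843 against 315 and 430.4 CPM in MASH (1.09 ± 0.12, adjusted p = 5.49e-05). Slc7a2, an arginine and ornithine carrier, was at 1070.3, 599 and 347 against 1052, 609 and 374 CPM in chow, and 1069.9 and 1169.8 against 485 and 596 CPM in MASH (1.09 ± 0.11, adjusted p = 1.86e-05). In the diet comparison of periportal nuclei alone neither was called (Cps1 -0.72, adjusted p = 0.322; Slc7a2 0.52, adjusted p = 0.425).

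Gldc, glycine decarboxylase, was at 196, 53.8 and 93.2 against 115, 38.7 and 76.6 CPM in chow and 119.6 and 139 against 37.5 and 28.7 CPM in MASH (1.46 ± 0.21, adjusted p = 0.00044). Etnppl, which breaks down phosphoethanolamine, had a difference of 1.64 ± 0.26 (adjusted p = 0.00113). Of the 22 periportal landmarks outside the rule, which share several genes with these lists, 12 were higher and 0 lower (median 0.76). Among all genes tested 1.28% were higher. Without MASH replicate 1 or 2, 3 and 4 urea genes, 5 and 7 amino acid genes and 5 and 6 landmarks were called, and in nuclei ranked after thinning 6, 12 and 9.

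**Figure D5:**
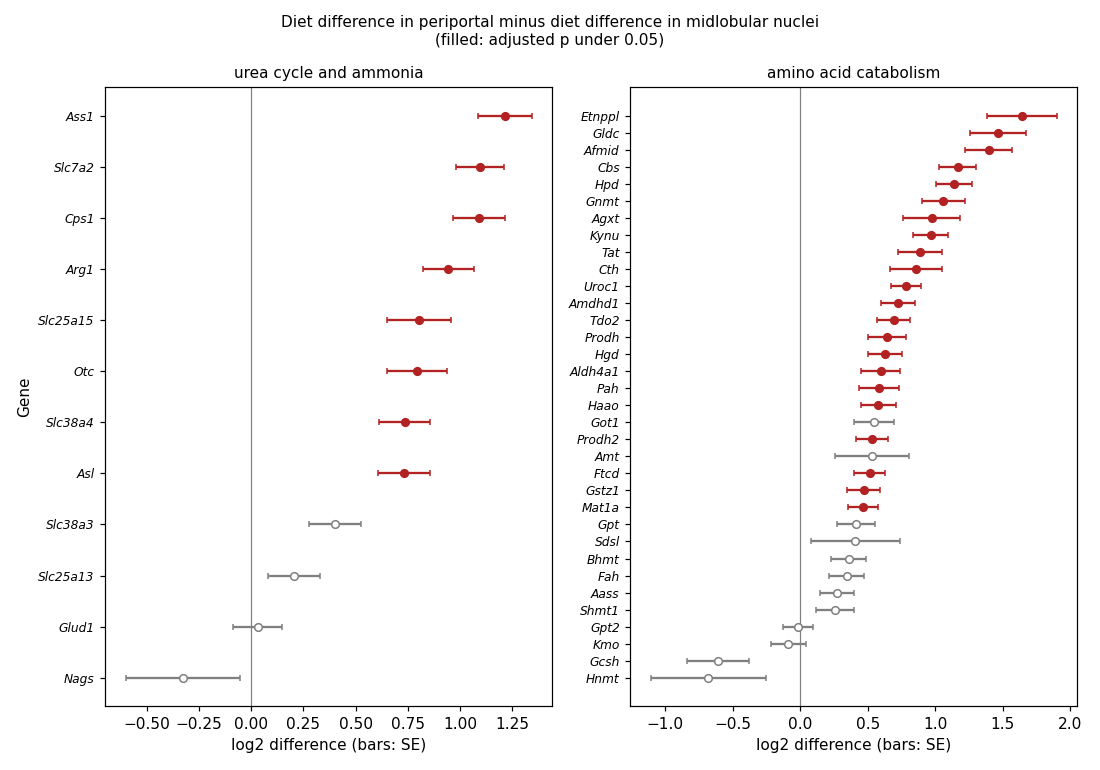
Diet difference (log2 MASH over chow) in periportal minus that in midlobular nuclei for each tested gene of the urea cycle and of amino acid catabolism, with its standard error, filled where the adjusted p was under 0.05. Filled points are 8 of 12 and 22 of 34 genes and lie above 0, led by Ass1 at 1.21 and Etnppl at 1.64.

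Hamp, hepcidin, the hormone that holds back iron export, was lower at the portal end than in the midlobular nuclei of chow. It stood at 1062, 823 and 1095 CPM in the periportal and 1226, 934 and 1438 CPM in the midlobular nuclei of chow, and at 497 and 449.6 against 202 and 144 CPM in MASH (1.73 ± 0.13, adjusted p = 2.98e-07). Its order of zones in chow was the opposite of that in MASH in all 5 libraries. Between diets, periportal Hamp was at -1.37 ± 0.37 (adjusted p = 0.0689).

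In 8 lists 1 or 2 genes had a lower diet difference, against 0.494% of all genes tested. They were Cyp3a11 (-0.87, adjusted p = 0.00233) of the pericentral landmarks, Plin2 (-0.78) and Plin4 of the droplet proteins, Thrsp and Acaca of lipogenesis, Apoa4 of the apolipoproteins, Hmgcs1 of cholesterol synthesis, Btg2 of the stress genes, Krt8 and Tead1 of the YAP targets and Jun (-1.18) and Klf6 (-0.81) of the daHep genes. Jun was at 112 and 126 CPM in periportal and 259.7 and 206 CPM in midlobular nuclei of MASH, and Klf6 at 86.3 and 136 against 238 and 231 CPM. Bile acid genes had 5 of 19 higher (Cyp7a1, Fgfr4, Abcg5, Abcg8 and Abcc2), against 1.28% of all genes tested. Higher genes of other lists were Ghr and Igf1 of the growth hormone axis, Hamp of the acute-phase list and Gsta3 of the NRF2 list.

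The named genes with the largest differences on the higher side were Tlr5, Osbpl3, Ces1b, Chrna4 and Id1. Osbpl3 was at 5.66, 1.21 and 0.157 CPM in periportal and 46.9, 4.27 and 1.52 CPM in midlobular nuclei of chow, against 300.0 and 346 and 483 and 416 CPM in MASH (2.32 ± 0.29, adjusted p = 0.000124), so its fold rise was larger at the portal end, where its chow sums held 25 UMIs, while its rise in CPM was larger in midlobular nuclei. Id1, a BMP target, was at 11, 10.3 and 13.5 against 8.88, 16 and 26.1 CPM in chow and 43.9 and 52.3 against 24.1 and 18.3 CPM in MASH (1.82 ± 0.31, adjusted p = 0.00255). Those on the lower side were Mup9 and the haemoglobin genes Hba-a2, Hba-a1, Hbb-bs and Hbb-bt. Haemoglobin is red cell RNA, and Hba-a2 was at 854 CPM in the midlobular nuclei of MASH replicate 1 against 7.33 CPM in MASH replicate 2. Without MASH replicate 1 the difference of Hba-a2 was 1.30, against -4.24 with it.

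The last comparison set periportal against pericentral nuclei (3645 nuclei). The same term over 12184 genes called 165 (1.35%), 97 higher (0.796%) and 68 lower (0.558%) in periportal nuclei, with a median of -0.01 over all genes and 1644 at an unadjusted p under 0.05. There were 2 and 3 calls without MASH replicate 1 or 2 and 428 without chow replicate 1.

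Of the 12 urea cycle genes 5 had a higher and 0 a lower diet difference in periportal nuclei (median 0.93), and none was called without either MASH library. Arg1 was at 739.6, 720.3 and 756 CPM in periportal and 195, 373 and 346 CPM in pericentral nuclei of chow, and at 881 and 1114 against 90.8 and 143 CPM in MASH (1.71 ± 0.27, adjusted p = 0.0133). Ass1 was at 43.3 and 63.4 CPM in the pericentral nuclei of MASH against 188, 232 and 118 CPM in chow (1.99 ± 0.20, adjusted p = 0.0022), and Cps1 at 104 and 158 CPM against 697, 889 and 416 CPM (1.89 ± 0.21, adjusted p = 0.00276). For all 3 genes the pericentral libraries of MASH were under those of chow, while the unscaled periportal ones overlapped for Ass1 and Cps1 and were above chow for Arg1. Slc7a2 and Slc25a15, the ornithine carriers, were the other calls. Among all genes tested 0.796% had a higher diet difference in periportal nuclei.

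Of 34 amino acid genes 6 were higher (Afmid, Kynu, Gnmt, Uroc1, Cbs and Tdo2) and 0 lower (median 0.50). Of the 22 periportal landmarks 5 were higher and 0 lower (median 0.49), against 0.796% and 0.558% of all genes tested. Summed over the urea cycle list, periportal nuclei had 4276 to 7530 CPM in chow and 5785 to 6559 CPM in MASH, and pericentral nuclei 3946 to 4804 CPM and 2702 to 2848 CPM. The MASH range at the portal end lay within that of chow, and at the central end below it.

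Of 18 lipogenesis genes 0 were higher and 3 lower, against 0.558% lower among all genes tested, and the list median was -0.26. Thrsp, a lipogenic nuclear protein, was at 296, 657 and 236 CPM in periportal and 191, 348 and 179 CPM in pericentral nuclei of chow, against 155 and 210.1 and 306 and 477 CPM in MASH (-1.82, adjusted p = 0.0022). Acaca, acetyl-CoA carboxylase, had a mean of 212 ± 95.9 CPM in periportal against 97.3 ± 47.9 CPM in pericentral nuclei of chow (SD, n = 3), and 245 ± 16.4 against 273 ± 8.54 CPM in MASH (SD, n = 2; difference -1.38, adjusted p = 0.00275), and Fasn, fatty acid synthase, had -1.46 (adjusted p = 0.0256). Thrsp was higher at the portal end in 3 of 3 chow libraries and in 0 of 2 MASH libraries.

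Of 19 apolipoprotein and VLDL genes, 1 was lower (Apoa4), against 0.558% of all genes tested, and 18 were not called. Apoa4, an apolipoprotein of lipid absorption and VLDL, was at 15.1, 74.8 and 138 against 3.57, 15.4 and 24.9 CPM in chow and 267 and 190.2 against 309 and 284 CPM in MASH (-2.83 ± 0.19, adjusted p = 5.56e-05). Plin2 was at 1069, 590.2 and 868 against 690.4, 546 and 673 CPM in chow and 398 and 391 against 775 and 614 CPM in MASH (-1.26, adjusted p = 0.011). Its zone order in chow was the opposite of that in MASH. Fgf21 was at 48.8 and 82.6 CPM in periportal and 70.2 and 131 CPM in pericentral nuclei of MASH (-2.79 ± 0.38, adjusted p = 0.00846), against 0.943 to 7.86 and 0.151 to 1.37 CPM in chow.

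Cyp3a11 was at 829.5, 1053 and 494 against 691, 1141 and 742 CPM in chow and 256 and 211 against 710.0 and 763 CPM in MASH (-1.59 ± 0.24, adjusted p = 0.0105), so its fall in MASH was larger in periportal nuclei. Avpr1a had the opposite difference (2.50, adjusted p = 0.00955). Of the other lists, genes that included Tkfc, Pklr and Il1r1 were lower, and Vnn1, Acaa1b, Abcg5, Abcg8, Ghr, Hamp and Notch1 higher in their diet difference.

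Imprinted Meg3, a long noncoding RNA, led the higher side. It was at 1.57, 1.41 and 2.83 CPM in periportal and 92.5, 65.6 and 191 CPM in pericentral nuclei of chow, and at 2.12 and 1.47 against 1.42 and 1.27 CPM in MASH (6.21 ± 0.90, adjusted p = 0.00955). The periportal levels were low in all 5 libraries, and the pericentral ones in both MASH libraries. Osbpl3, at 137, 13.0 and 5.72 CPM in the pericentral nuclei of chow and 357 and 373 CPM in those of MASH, differed by 4.11 ± 0.27 (adjusted p = 5.56e-05), and Tlr5, the flagellin receptor, by 3.54 ± 0.51 (adjusted p = 0.00955). Tlr5 had only 10 UMIs in the periportal nuclei of chow and 32 in those of MASH. Osbpl3 had 25 UMIs in the periportal nuclei of chow. Its TMM-scaled means rose from 2.36 to 293 CPM in periportal and from 48.3 to 322 CPM in pericentral nuclei. The fold rise of Osbpl3 thus differed far more between these zones than its rise in CPM. Rgs16, a G protein regulator, was at 224 and 268 CPM in periportal and 663 and 799 CPM in pericentral nuclei of MASH, against 31.1, 49.6 and 11.5 and 6.04, 19.3 and 10.2 CPM in chow (-2.86 ± 0.35, adjusted p = 0.00433).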

How the data were processed

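Single nuclei of 5 mouse liver libraries (3 chow, 2 MASH, grouped by their titles) were counted with 10x Genomics 3' chemistry. The authors deposited raw UMI counts per gene and barcode from Cell Ranger 8.0.1 (GRCm38, intronic reads left out according to the study's methods). The 32285 genes have Ensembl identifiers, of which 99.6% were found in the GENCODE annotation of GRCm38 that gave coordinates. No sample column was left unused. The members and gene lists were chosen with earlier results of these data known.

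Nuclei were ranked within each library, as above, and UMIs summed per library and bin. Sums were tested with edgeR 4.0.16 (R 4.3.3; TMM, filterByExpr, glmQLFit and glmQLFTest, Benjamini-Hochberg, two-sided). The 15 rule genes stayed in the library sizes and were not tested. SE values are the absolute log2 fold change divided by the root of its F statistic. Levels by bin are unscaled CPM. Alternatives used DESeq2 1.42.0, Storey q-values, RLE scaling, other filters, other shares of nuclei, thinned or scaled scores, doublet scores from scanpy 1.11.5 and left-out libraries. Doublets were not removed from the main set.

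Named genes were, between diets, the 10 largest called rises and falls without overlap and at least 20 CPM in the higher diet, up to 3 called genes per list and direction, the highest gene of each list and the 8 genes of the daHep list, apart from some that are not reported here. For each zone difference they were the 5 largest called in each direction. Predicted genes were left out, and genes outside this rule were named after their values were seen. On simulated counts with 200 of 11057 genes changed, the diet test recovered 76.8% of changes of log2 2 and 96.6% of log2 3. The simulation gave every gene the same dispersion and placed changes only in genes above a minimum expected count, so recovery in the real data may be lower. No library pair agreed within sampling noise.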

Additional observations from a re-analysis of the deposited data

Results flagged for a closer look

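The diet difference of 20 gene and zone pairs stood out because it was not the same in periportal nuclei as in another zone, by the test of the difference itself (edgeR, adjusted p under 0.05). All values are log2 differences of the diet fold changes, periportal minus the other zone, and no explanation was tested.

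Against pericentral nuclei the higher values were those of Meg3 (6.21), Airn (4.44), Osbpl3 (4.11), Tlr5 (3.54) and Ier3 (2.96). Meg3 and Airn are noncoding RNAs of imprinted loci. Meg3 was under 3 CPM in periportal nuclei of both diets. Airn, which lies antisense to Igf2r, had 1 UMI in the periportal nuclei of chow and 28 in those of MASH, so its value rests on 1 chow molecule. In pericentral nuclei its TMM-scaled mean was 17.5 CPM in chow and 60.9 CPM in MASH. Meg3 lost its call with thinned scores, with outer bins of 1 in 3 nuclei and at the common score limits. The lower values were those of Mup7 (-4.28), Gadd45b (-3.68), Rgs16 (-2.86), Apoa4 (-2.83) and Fgf21 (-2.79). Mup7 had 1 UMI and Gadd45b 2 in the periportal nuclei of MASH, so both rest on very few molecules. Counts were also low for Tlr5 and Osbpl3, with 10 and 25 UMIs in the periportal nuclei of chow, and for Fgf21, with 12 in the pericentral nuclei of chow.

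Against midlobular nuclei the higher values were those of Tlr5 (2.46), Osbpl3 (2.32), Ces1b (1.91), Chrna4 (1.88) and Id1 (1.82). Chrna4, an acetylcholine receptor subunit, had 407 UMIs in the periportal and 427 in the midlobular nuclei of chow, against 95 and 28 in MASH. Lower were Hba-a2 (-4.24), Hba-a1 (-4.21), Hbb-bs (-3.62), Hbb-bt (-3.38) and Mup9 (-2.91). The 4 haemoglobin values change sign without MASH replicate 1. Against pericentral nuclei Osbpl3 and Apoa4 kept their call in each setting that was run.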

How the results depend on the processing

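With 2 MASH libraries, 3 genes were called between diets without either of these, although 1548 and 1436 genes then had an unadjusted p under 0.05. Between diets, where 693 genes were called, DESeq2 called 1325 (52.5% of them higher in MASH, against 64.6%), Storey q-values 1667, no filter on low counts 1538, outer bins of 1 in 10 nuclei 392 and the common score limit, added after seeing the data, 273, while leaving out a library gave 3 to 1275. Against pericentral nuclei, where 165 were called, no filter gave 551 and leaving out a library 2 to 428. Against midlobular nuclei, where 215 were called, thinned scores gave 111 and leaving out a library 22 to 378. The other settings stayed within 1.5 times. The cause was not tested. Deviations of same-numbered libraries correlated at -0.0697 and -0.114. With 2 MASH libraries their deviations mirror each other: chow replicate 1 gave -0.0697 with MASH replicate 1 and 0.0697 with MASH replicate 2. These values therefore cannot tell whether replicate numbers paired the samples. With the replicate block 853 genes were called between diets, 587 of the 693 among them.

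Among the named genes, reversed signs were limited to those that were not called, and to haemoglobin. Mat1a (-0.72) gave 0.14 with the replicate block and -1.16 to 0.11 with a library left out, Sc5d (0.15) -0.078 to 0.63 and Gclc (0.37) -0.025 to 0.66. Jun (-0.04) gave 0.0092 with a stricter filter, 0.42 with the replicate block, 0.18 with thinned scores, 0.25 with outer bins of 1 in 3 nuclei, 0.065 with scaled scores, 0.055 under 5% mitochondrial UMIs and -0.26 to 0.42 with a library left out. Tead1 (0.07) gave -0.00069 without the filter, -0.0027 under 5% mitochondrial UMIs, -0.0094 at the common limit and -0.23 to 0.31 with a library left out. Against midlobular nuclei the range was -5.18 to 1.30 for Hba-a2, -5.26 to 1.98 for Hba-a1, -4.62 to 2.60 for Hbb-bs and -4.27 to 3.48 for Hbb-bt.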

Other observations

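Whole lists did not all lie where periportal hepatocytes are known to work hardest. Summed over 28 genes of fatty acid oxidation and ketogenesis, periportal nuclei held 6249 to 11127 CPM in chow and 6842 to 7120 CPM in MASH, against 10433 to 18362 CPM and 9981 to 10910 CPM in pericentral nuclei, and the median log2 ratio of bin 1 to bin 5 was between -0.50 and -0.20 over all 5 libraries. Amino acid catabolism, over 34 genes, was level along the score in chow (9257 to 13613 CPM in bin 1, 9625 to 12636 CPM in bin 5) and tilted to the portal end in MASH (11096 to 13552 CPM against 7470 to 9226 CPM). The 20 glucose and glycogen genes had 2893 to 5547 CPM at the portal end and 2084 to 3635 CPM at the central end of chow. These sums weigh genes with high levels most, no test was made along the score, and differences between RNA in nuclei and protein in cells cannot be seen here.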
